A study of Mus musculus with 16 samples.

Results

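The accessible regions described here lie nearest to 10 genes of the pathway that runs from G protein signalling through protein kinase A (PKA) to the salt-inducible kinases (SIKs) and the CREB-regulated transcription coactivators (CRTCs). A region was taken when its centre had the start site of Sik1, Sik2, Sik3, Crtc1, Crtc2, Crtc3, Prkaca, Prkar1a, Gnas or Creb1 as the nearest start site of a protein-coding gene, and 60 of 80367 listed regions did so. ATAC-seq, in which a transposase inserts sequencing adaptors into accessible DNA, was performed on small cell lung cancer (SCLC) cells sorted from pooled tumors of TKO;Hes1GFP/+ mice. In these mice, floxed alleles of Rb, p53 and p130 are deleted after Adeno-CMV-Cre is instilled into the lungs at 8 to 12 weeks of age, and tumors were collected some 6 to 7 months later. The CMV promoter that drives Cre is not specific to any cell type. GFP is expressed from an endogenous Hes1 allele, so that both sorted groups carry the same deletions and the same reporter allele and differ in its signal: GFPhigh cells are the non-neuroendocrine (non-NE) cells and GFPneg cells are the neuroendocrine (NE) cells. The labels gave 4 pairs of populations from 3 mice, with 2 pairs from 1 mouse, as 8 libraries run on 2 lanes each.

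Each listed region, called a peak, is in a list of opened peaks, which were more accessible in GFPhigh cells, or in a list of closed peaks, which were less accessible there. The members of this set were thus selected on the same contrast that the lists report, and all counts of opened and closed peaks below are descriptions without a test. The only level used is the authors' mean normalized count of each peak over all libraries, called the mean count below. It has no SD or n, and it does not say in which group a peak was higher. Peaks are called strong or weak by the mean count, which was not scaled to peak width. No value per sample was analysed here, and the depth per library is unknown. The difference between GFPhigh and GFPneg cells is in accessibility, not in expression, and nearness to a start site does not show which gene a region acts on.

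PKA is held inactive by its regulatory subunits and is released when adenylyl cyclase, switched on by the G protein subunit Gs alpha, makes cyclic AMP. The free catalytic subunit phosphorylates the transcription factor CREB, which binds the cyclic AMP response element (CRE), and it also phosphorylates and inhibits the SIKs. Active SIKs phosphorylate the CRTCs and hold them in the cytoplasm, so that inhibition of the SIKs lets the CRTCs enter the nucleus and assist CREB. Sik1 is itself a known CREB target gene. The SIKs are among the kinases that LKB1, a tumor suppressor in the lung, activates.

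The sequences below come from the strongest peak in each list of members with at least 5 peaks, which leaves out the distal peaks of Sik2, Prkaca and Prkar1a, and from promoters under a listed peak of any member. Lower case letters are the mm10 reference, and capitals mark 3 kinds of exact match on either strand: the CRE core TGACG, the core CATTCC of the element bound by TEAD factors (the DNA-binding partners of YAP), and the AP-1 element TGANTCA. A match is a run of letters and not a shown binding site. The first 6 are parts of peaks, written on the plus strand, and the last 5 are promoters from RefSeq on mm10, which run from 250 bases before to 50 bases after a start site on the strand of the gene.
Sik1, opened, chr17:31896806-31896958, the stretch that holds the TEAD cores of its strongest peak: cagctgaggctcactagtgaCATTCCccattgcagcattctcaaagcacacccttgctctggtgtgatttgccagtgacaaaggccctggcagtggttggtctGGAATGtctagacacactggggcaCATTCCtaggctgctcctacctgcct
Sik1, closed, chr17:31892959-31893158, centre of its strongest closed peak: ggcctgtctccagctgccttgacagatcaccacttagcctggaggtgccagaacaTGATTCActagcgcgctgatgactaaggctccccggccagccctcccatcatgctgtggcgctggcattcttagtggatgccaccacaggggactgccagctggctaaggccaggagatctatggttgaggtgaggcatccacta
Sik3, closed, chr9:46042490-46042689, centre of its only closed peak: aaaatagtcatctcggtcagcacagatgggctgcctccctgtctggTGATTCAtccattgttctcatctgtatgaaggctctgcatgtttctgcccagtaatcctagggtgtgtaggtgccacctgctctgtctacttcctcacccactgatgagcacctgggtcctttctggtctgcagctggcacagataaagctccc
Crtc3, closed, chr7:80744097-80744296, centre of its strongest closed peak: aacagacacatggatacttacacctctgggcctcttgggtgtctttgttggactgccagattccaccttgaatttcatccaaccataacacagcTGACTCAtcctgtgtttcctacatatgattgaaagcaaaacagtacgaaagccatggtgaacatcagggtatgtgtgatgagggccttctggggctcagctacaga
Gnas, closed, chr2:174292740-174292939, centre of its strongest closed peak: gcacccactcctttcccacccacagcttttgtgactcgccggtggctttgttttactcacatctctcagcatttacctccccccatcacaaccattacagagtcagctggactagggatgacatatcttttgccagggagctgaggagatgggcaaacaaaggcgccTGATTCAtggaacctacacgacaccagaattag
Creb1, closed, chr1:64338063-64338262, centre of its strongest closed peak: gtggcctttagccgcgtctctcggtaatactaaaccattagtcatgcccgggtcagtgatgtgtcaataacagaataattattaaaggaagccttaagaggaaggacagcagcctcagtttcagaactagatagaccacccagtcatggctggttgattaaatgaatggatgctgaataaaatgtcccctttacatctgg
Sik2, promoter under an opened peak, chr9:51009024-51009323, minus strand: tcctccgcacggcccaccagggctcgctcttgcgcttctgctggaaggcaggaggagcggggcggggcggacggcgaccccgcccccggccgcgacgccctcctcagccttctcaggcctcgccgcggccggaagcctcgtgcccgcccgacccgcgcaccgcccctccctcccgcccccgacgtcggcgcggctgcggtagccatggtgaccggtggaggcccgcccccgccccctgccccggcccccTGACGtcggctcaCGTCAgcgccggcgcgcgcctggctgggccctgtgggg
Sik3, promoter under an opened peak, chr9:46012570-46012869, plus strand: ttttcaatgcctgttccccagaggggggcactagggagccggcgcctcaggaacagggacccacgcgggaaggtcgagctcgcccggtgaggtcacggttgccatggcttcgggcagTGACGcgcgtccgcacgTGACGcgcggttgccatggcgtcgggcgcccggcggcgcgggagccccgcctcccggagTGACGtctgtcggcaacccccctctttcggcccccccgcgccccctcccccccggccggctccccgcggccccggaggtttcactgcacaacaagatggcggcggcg
Crtc1, promoter under an opened peak, chr8:70439524-70439823, minus strand: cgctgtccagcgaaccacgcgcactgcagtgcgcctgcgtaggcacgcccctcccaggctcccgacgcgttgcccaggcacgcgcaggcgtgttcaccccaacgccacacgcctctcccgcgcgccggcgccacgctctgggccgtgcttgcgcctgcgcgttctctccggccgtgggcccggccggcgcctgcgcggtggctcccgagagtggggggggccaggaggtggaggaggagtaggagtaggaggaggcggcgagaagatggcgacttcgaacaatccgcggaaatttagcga
Gnas, promoter under an opened peak, chr2:174329756-174330055, plus strand: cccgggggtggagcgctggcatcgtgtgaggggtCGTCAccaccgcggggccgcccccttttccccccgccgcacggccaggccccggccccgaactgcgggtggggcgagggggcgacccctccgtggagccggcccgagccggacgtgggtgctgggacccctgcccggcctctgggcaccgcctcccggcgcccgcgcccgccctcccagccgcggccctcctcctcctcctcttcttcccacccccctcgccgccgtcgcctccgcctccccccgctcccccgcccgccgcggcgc
Prkar1a, promoter under a closed peak, chr11:109649113-109649412, plus strand: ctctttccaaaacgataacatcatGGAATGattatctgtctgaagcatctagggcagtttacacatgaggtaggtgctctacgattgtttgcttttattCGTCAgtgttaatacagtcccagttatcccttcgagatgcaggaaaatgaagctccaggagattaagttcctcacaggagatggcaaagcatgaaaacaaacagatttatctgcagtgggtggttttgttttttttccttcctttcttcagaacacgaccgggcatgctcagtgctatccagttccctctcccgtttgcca

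The Sik1 stretch was chosen after its sites had been seen, since the central 200 bp of that peak hold none of the 3 elements. The strongest opened peaks of Sik3 and Gnas lie over the promoters shown and are not repeated, and the strongest opened peak of Crtc3 and a further Prkar1a promoter, without a marked letter, are left out. RefSeq promoters of Sik1 and Crtc2 are not shown. The closed sequences of Sik1, Sik3, Crtc3 and Gnas each hold 1 AP-1 element, and the closed sequence of Creb1 holds none of the marked elements.

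Of the 60 member peaks, 40 were opened and 20 were closed. The opened share was 66.7% (95% Wilson interval 54.1 to 77.3, which covers counting error only), against 50.8% of all listed peaks. Sik1 alone gave 24 of the 40 opened peaks. Without Sik1, 16 of 33 peaks were opened, or 48.5% (32.5 to 64.8), so that the surplus of opened peaks over the background rested on 1 gene. Crtc2 had no listed peak, as did 33.4% of the 21911 protein-coding genes.

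The plot of peak numbers by gene shows how the members differed by role. The 3 SIK kinases had 33 opened and 4 closed peaks, an opened share of 89.2% (75.3 to 95.7). Sik1 gave 24 of these opened and 3 of these closed peaks, Sik2 had 3 opened peaks, and Sik3 had 6 opened and 1 closed. The interval treats peaks of 1 locus as independent. The CRTC coactivators had 2 opened and 4 closed peaks, the PKA subunits 2 opened and 2 closed, and Gnas 3 opened and 4 closed. Creb1 had 6 closed peaks and no opened peak, which allows an opened share of up to 39.0% by the same interval.

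**Figure D1:**
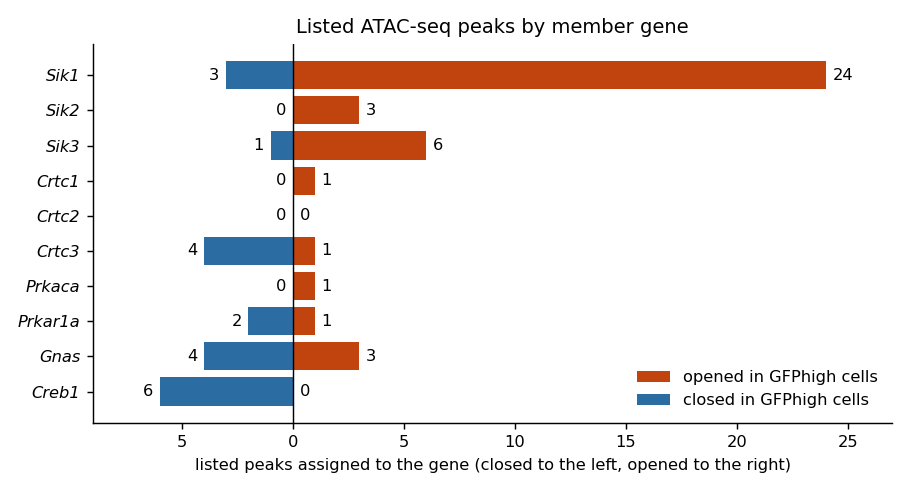
Number of listed ATAC-seq peaks assigned to each member gene (horizontal axis, peaks), with opened peaks drawn to the right of 0 and closed peaks to the left. Sik1 has 24 opened and 3 closed peaks, Creb1 has 6 closed and no opened peaks, and Crtc2 has none.

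Start sites were opened more often than closed. A peak was called a promoter peak of a gene when its centre lay within 1 kb of a start site of that gene. Sik1, Sik2, Sik3, Crtc1 and Gnas, which are 5 of the 10 members, had an opened promoter peak, and 28.7% of all protein-coding genes had one. Prkar1a was the only member with a closed promoter peak, against 8.65% of all genes. Crtc2, Crtc3, Prkaca and Creb1 had no listed peak within 1 kb of their start sites. No member had promoter peaks in both lists.

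Sik2, a SIK with roles in metabolism, held the strongest member peak. This opened peak, chr9:51008602-51009439, is 838 bp wide and its centre lies 0.053 kb from a Sik2 start site, and its mean count of 696 exceeded that of 99.1% of all opened peaks. A second opened promoter peak at chr9:51008337-51008540 had a mean count of 36.3, and the remaining opened peak lay 6.857 kb upstream with a mean count of 12.1. The assigned signal of Sik2 was therefore nearly all at its start site. When peaks were instead assigned to a gene body or the 10 kb around it, Sik2 had 5 opened peaks and 1 closed peak.

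Sik3, like its relatives a substrate of LKB1, had 6 opened peaks and 1 closed peak, all at its start site or in its introns. The promoter peak chr9:46012509-46013405 had a mean count of 321 and its centre lay 0.137 kb into the gene. The nearest intronic peaks, 1.722 kb and 3.856 kb into the gene, had mean counts of 20.6 and 106. Further in, the opened peaks at 55.0, 99.6 and 107 kb had mean counts of 20.4, 82.1 and 24.6. The only closed peak lay between the peaks near the start and these farther ones, 29.8 kb into the gene, with a mean count of 27. A closed region thus lay among opened ones in the introns of a single kinase gene. The last peak was assigned to Sik3 by a small margin, at 107.4 kb from its start against 108.4 kb from that of the next gene.

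Sik1, the inducible member of the kinase family, stood out by number. Its 27 peaks placed it above 98.5% of protein-coding genes, 60 genes, Sik1 included, had at least as many opened peaks, and the median over genes with a peak was 3. The stretch of genome nearer to its start site than to that of any other protein-coding gene is 178 kb long, which gave 15.1 peaks per 100 kb, against a median of 5.23 over genes with a peak and 3.03 over the whole genome. Opened peaks lay on both sides, 11 upstream and 13 downstream, and 3 closed peaks lay upstream. A single peak was within the Sik1 gene body, and 22 of the 27 (81.5%) were intergenic, against 32.1% of all listed peaks.

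The promoter of Sik1 was opened over 2 peaks. The larger, chr17:31855689-31856477, is 789 bp wide, has its centre 0.279 kb upstream of the start site and had a mean count of 357. It holds 5 CRE cores, and 2 of them overlap as a full CRE, TGACGTCA, at chr17:31856036-31856043, the only full CRE in the central 200 bp of any member peak. The smaller, chr17:31856554-31856878, lay 0.912 kb upstream with a mean count of 98.6.

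The strongest Sik1 peak was not at the start site. It is the 1147 bp wide opened peak chr17:31896792-31897938, 41.561 kb upstream in an intron of the long noncoding gene AC138228.1, with a mean count of 634. It holds the 3 TEAD cores of the stretch shown above, at chr17:31896826-31896831, chr17:31896909-31896914 and chr17:31896933-31896938, and 1 CRE core. Over their whole width, 18.8% of all listed peaks held a TEAD core and 16.9% a CRE core, but their median width was only 269 bp, and a wider peak has more room for matches. Farther upstream, 4 more opened peaks between 48.5 and 64.0 kb had mean counts of 189, 301, 313 and 294. Downstream of the gene, opened peaks of similar strength lay 13.5, 21.0, 47.5 and 61.8 kb from the start, with mean counts of 168, 282, 170 and 180. In all, 10 of the 24 opened peaks (41.7%) exceeded a mean count of 100, against 25.5% of all opened peaks, and the median over all 24 was 81.8. The closed peaks were weaker, with mean counts of 71.6, 17.7 and 17.3.

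**Figure D2:**
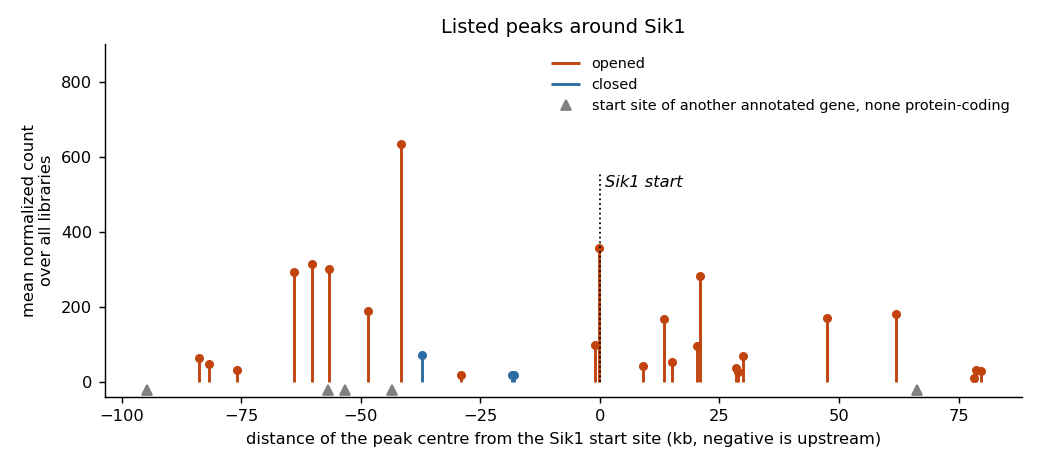
Mean normalized count over all libraries (vertical axis) of each listed peak assigned to Sik1 against the distance of its centre from the Sik1 start site in kb (horizontal axis, upstream to the left). Triangles mark starts of noncoding genes or pseudogenes, and the tallest opened peak stands 41.6 kb upstream with a mean count of 634, above the promoter peak at 357.

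The assignment to Sik1 depends on leaving out noncoding genes. When start sites of all annotated genes were counted, 15 of the 27 peaks lay nearer to another start, the strongest among them, and 10 opened and 2 closed peaks remained with Sik1. Assigned by gene body or the 10 kb around it, Sik1 had 7 peaks, all opened. With start sites of all annotated genes counted, 27 of the 60 member peaks lay nearer to another gene, as did 49.8% of all listed peaks. The outermost opened peak inside the set, with a mean count of 63.5, lay 83.7 kb from Sik1 and 95 kb from the next protein-coding gene, and the nearest peak left out lay 99.0 kb away, closer to Hsf2bp, with a mean count of 37.0.

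The surroundings of Sik1 were also mostly opened. Of the 635 other listed peaks within 5 Mb of its start site, 85.7% were opened, against 88.9% of its own peaks, and the density of these other peaks was 6.35 per 100 kb. Whether the neighbourhood has a part in the opened share of Sik1 was not tested. Around the other members the opened share of other peaks within 5 Mb ran from 31.7% at Gnas to 70.1% at Crtc2. Creb1, with none of its peaks opened, had 51.5% opened around it, and Crtc1, with its 1 peak opened, had 34.7%.

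**Figure D3:**
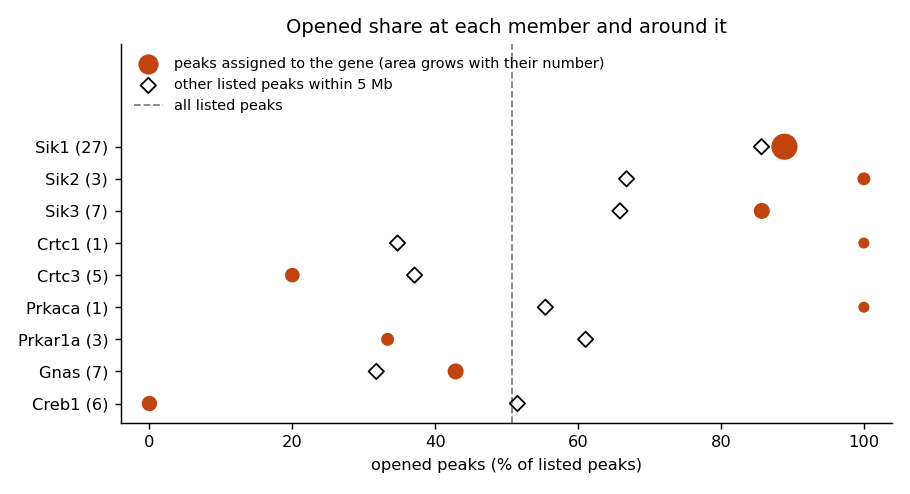
Share of opened peaks among listed peaks (horizontal axis, %) at each member with a listed peak (filled circles, number of peaks in brackets) and among other listed peaks within 5 Mb of its start site (open diamonds), with the share over all listed peaks dashed. The diamond of Sik1, at 85.7%, lies next to its circle at 88.9%, and the diamond of Creb1, at 51.5%, lies far from its circle at 0%.

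By numbers of opened and closed peaks, no protein-coding gene equalled Sik1. The 3 nearest were Grhl2 with 25 and 3, Rbm47 with 23 and 3, and Stxbp6 with 24 and 2, each 1 peak away.

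Among the coactivators, Crtc1 had a single listed peak, which was strong and opened. This peak, chr8:70439115-70440006, is 892 bp wide, its centre lay 0.019 kb from the start site, and its mean count was 408. Crtc3 had the opposite make-up, with 1 opened and 4 closed peaks, none at its start. The opened peak lay in an exon 46.8 kb into the gene with a mean count of 19.0, and a closed peak with a mean count of 9.29 lay 40.4 kb into the gene. The other closed peaks lay 26.6, 39.2 and 55.3 kb upstream of Crtc3 within the body of the neighbour Iqgap1, with mean counts of 19.6, 35.0 and 90.1. The strongest, chr7:80743876-80744517, was 55.3 kb from Crtc3 and 59.2 kb from the next start, so that its link to Crtc3 is by a narrow margin. For Crtc2 the nearest listed peak lay 6.0 kb from its start site. That opened peak had a mean count of 306 and lay at the start of Slc39a1, to which it was assigned.

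The kinase subunits had few listed peaks. Prkaca, which encodes the alpha catalytic subunit of PKA, had 1 opened peak, chr8:83964060-83964513, with a mean count of 42.5. It lay in an intron of Asf1b, 8.707 kb from Prkaca and 8.779 kb from the next start site, so that by distance it belongs to either gene about equally. Assigned by gene body or the 10 kb around it, Prkaca had 5 opened peaks and 1 closed peak. Prkar1a encodes the type I alpha regulatory subunit, which holds the catalytic subunit inactive. It had 2 closed promoter peaks at separate annotated start sites, chr11:109649060-109649267 with a mean count of 46.8 and chr11:109650058-109650159 with 20.2. The first of these lies over the promoter shown above, whose TEAD core and CRE core both fall within the peak. An opened peak 7.406 kb upstream, chr11:109641616-109642382, had the highest mean count at this gene, 85.9.

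Gnas is a complex imprinted locus with several promoters, of which the most downstream group makes Gs alpha, the subunit that activates adenylyl cyclase. Its opened promoter peaks both lay at this group. The peak chr2:174329594-174330312 had a mean count of 378 with its centre 0.053 kb from a start site, and the peak chr2:174330407-174330605 had a mean count of 72.0. All 4 closed peaks lay upstream of them. The strongest, chr2:174292650-174293030 with a mean count of 30.7, lay in an intron between the 2 most upstream Gnas start sites. The other closed peaks had mean counts of 22.1, 11.2 and 3.79. A further opened peak lay 72.4 kb upstream with a mean count of 42.7. Another opened peak inside the Gnas body, 13.9 kb downstream of a Gnas start with a mean count of 229, was assigned to Gm20721 and is no member.

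Creb1, the CREB factor itself, had closed peaks only. Of these, 5 were intergenic at 86.4 to 195 kb upstream, with mean counts of 16, 86.4, 61.0, 17.1 and 37.2, and each lay nearer to a noncoding start site than to Creb1. The peak nearest to a Creb1 start, chr1:64546146-64546404, lay in an intron 13.4 kb into the gene with a mean count of 33.2. The strongest, chr1:64337930-64338395, was 194 kb away. An opened peak within the Creb1 gene body, with a mean count of 75.4, lay nearer to Mettl21a and is no member. Assigned by gene body or the 10 kb around it, Creb1 had 1 opened and 1 closed peak.

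**Figure D4:**
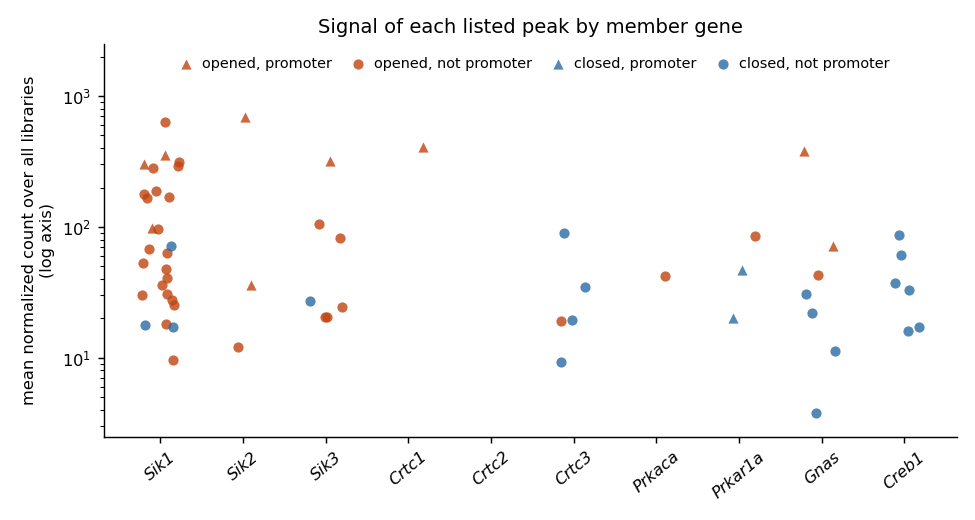
Mean normalized count over all libraries (vertical axis, log scale) of each member peak by gene, with triangles for peaks within 1 kb of any annotated start site and circles for other peaks. The strong peaks are opened, with the strongest peaks of Sik2, Sik1, Crtc1, Gnas and Sik3 all above 300, and every closed peak is below 100.

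Across the set, the opened peaks were stronger than the closed peaks. The median mean count was 70.0 for the 40 opened peaks and 24.5 for the 20 closed peaks, against 40.7 and 25.8 for all opened and all closed peaks. The opened member peaks were also wider, with a median of 399 bp against 252.5 bp for the closed. The part of width in the counts was not tested. All 15 member peaks with a mean count over 100 were opened, as were 74.1% of all listed peaks over that count, and 10 of the 15 belonged to Sik1. Promoter peaks, here within 1 kb of any annotated start site, made up 18.3% of member peaks and 16.1% of all peaks. Introns held 23.3% of member peaks, against 48.2% of all peaks, and intergenic sequence held 53.3%, against 32.1%. Without Sik1, introns held 36.4% and intergenic sequence 30.3% of member peaks.

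The CRE core occurred in the central 200 bp of 16 of 60 member peaks, or 26.7% (17.1 to 39.0), against 11.0% of all listed peaks. Sites of other factors can contain the same 5 letters. At promoter peaks the core occurred in 7 of 11 member peaks (63.6%), against 17.4% of all promoter peaks. The member promoter peaks were also richer in GC, with a median of 73.5% and 20 CpG dinucleotides in 200 bp, against 61.2% and 10, and the CRE core itself contains a CpG. The part of base composition in this difference was not tested. In RefSeq promoters of 300 bp, the CRE core occurred in 20.8% and the full CRE in 1.79% of 32817. The Sik2 promoter shown above holds 2 CRE cores, the Sik3 promoter 3, those of Gnas and Prkar1a 1 each, and that of Crtc1 none.

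The TEAD core occurred in 15% of member peaks and 12.5% of all peaks. All but 2 of its 9 peaks were opened peaks of Sik1, where 7 of 24 (29.2%, 14.9 to 49.2) held it, against 17.0% of all opened peaks. The other peaks were an opened intronic peak of Sik3 and the closed Prkar1a promoter peak. The AP-1 element occurred in 8 of 20 closed member peaks (40%, 21.9 to 61.3), against 25.4% of all closed peaks, and in 3 of 40 opened member peaks (7.5%), against 10.1%. The intervals of these TEAD and AP-1 shares include the shares over all peaks. The element TGTTTAC of the forkhead (FOX) factors occurred in 5% of member peaks and 7.80% of all peaks, and the element TGGGAA of the Notch effector RBPJ in 18.3% and 16.8%.

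The other genes of the pathway showed no common direction. A list of 115 such genes had 956 peaks, of which 47.0% (43.8 to 50.1) were opened, against 50.8% of all listed peaks. Without the 2 genes with the most peaks of each list, a choice made after the data were seen, 559 of the 956 peaks were left and 56.4% (52.2 to 60.4) of them were opened. Adenylyl cyclases, which make cyclic AMP, had the lowest opened share, 22 of 91 peaks or 24.2% (16.5 to 33.9), and Adcy2 and Adcy1 had 24 and 20 closed peaks and no opened peak. Without these genes the cyclases had 22 opened and 25 closed peaks (46.8%, 33.3 to 60.8), and by gene 4 of 10 had more opened than closed peaks and 5 had more closed. The phosphodiesterases, which degrade cyclic AMP, had 74 opened and 130 closed peaks, or 36.3% opened (29.99 to 43.1). Pde4d had 18 opened and 47 closed peaks and Pde4b 13 and 8, both with promoter peaks in either list, and Pde10a had 21 closed peaks only. Without Pde4d and Pde10a the phosphodiesterases had 56 opened and 62 closed peaks (47.5%, 38.7 to 56.4), and by gene 7 of 15 with a peak had more opened and 8 more closed. The closed surplus of both lists thus rested largely on the genes named.

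Nearer to the members, the remaining PKA subunits and inhibitors had 16 opened and 25 closed peaks, 39.0% opened (25.7 to 54.3). Pkib, a PKA inhibitor, had 2 opened and 9 closed peaks. Prkacb, the beta catalytic subunit, had 1 opened and 8 closed peaks with promoter peaks in both lists. Without them the list had 13 opened and 8 closed peaks (61.9%, 40.9 to 79.2). The A-kinase anchoring proteins, which tether PKA, had 56 opened and 34 closed peaks (62.2%, 51.9 to 71.5), led by Akap13 with 14 and 3 and Akap7 with 12 and 4, and without these it had 30 and 27 (52.6%, 39.9 to 65.0). Other G alpha subunits had 50 opened and 44 closed peaks (53.2%, 43.2 to 63.0), with 10 and 17 at Gna14 and 13 and 3 at Gnaq.

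Downstream, other CREB family members and coactivators had 53 opened and 24 closed peaks (68.8%, 57.8 to 78.1), and 8 of these 13 genes had an opened promoter peak and none a closed one, against 28.7% and 8.65% of all genes. Creb5 gave 26 of the opened peaks and 6 of the closed, and Creb3l2 had 6 and 8. The subunits of PP2A, a phosphatase, had 71 opened and 33 closed peaks (68.3%, 58.8 to 76.4), with 11 and 7 at Ppp2r2b and 11 and 4 at Ppp2r5a. The LKB1 complex, the class IIa histone deacetylases that SIKs phosphorylate and the MEF2 factors these repress had 51 opened and 62 closed peaks (45.1%, 36.3 to 54.3), with 1 and 22 at Mef2c and no opened and 20 closed at Hdac9. Without these genes the list had 50 opened and 20 closed peaks (71.4%, 59.9 to 80.7), so that its direction turned on them. Cyclic AMP-responsive CREB target genes had 56 opened and 86 closed peaks (39.4%, 31.8 to 47.7), with 9 and 21 at Ppargc1a and no opened and 19 closed at Rgs2. Without Ppargc1a and Rgs2 the target genes had 47 opened and 46 closed peaks (50.5%, 40.6 to 60.5), and by gene 7 of 17 had more opened and 10 more closed. The lists of other G alpha subunits, CREB family members and PP2A subunits kept opened shares of 52.9%, 67.7% and 69.0% without their 2 genes with the most peaks. Of 14 PP2A genes, 9 had an opened and 1 a closed promoter peak. Of 13 genes in the list with the LKB1 complex, these were 8 and 2, and of 16 phosphodiesterases 6 and 8. Over all 115 pathway genes, 52 had an opened and 21 a closed promoter peak.

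**Figure D5:**
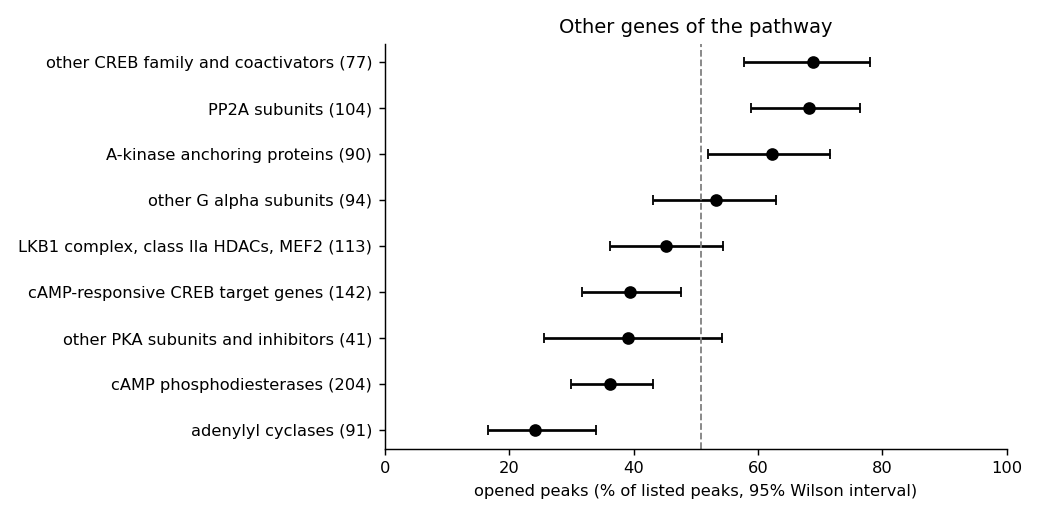
Share of opened peaks among the listed peaks of 9 lists of other pathway genes (horizontal axis, %, with 95% Wilson intervals; number of peaks in brackets; dashed line, all listed peaks at 50.8%). Adenylyl cyclases have the lowest share at 24.2%, and CREB family members and coactivators the highest at 68.8%; without Adcy2 and Adcy1 the cyclases are at 46.8%.

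The labels of the sorted groups were set beside cell type markers. The non-NE markers include Hes1, whose reporter defined the sort. They also include Rest, Yap1 and Wwtr1, which the paper reported as upregulated in GFPhigh cells. These markers are thus no independent check of the labels. Of 11 NE markers, 10 had a closed promoter peak and none an opened one, and of 10 non-NE and club cell markers, 9 had an opened promoter peak and none a closed one. Over all protein-coding genes these shares were 8.65% for a closed and 28.7% for an opened promoter peak. By all peaks, the NE markers had 12 opened and 80 closed, and the non-NE and club cell markers 142 and 43. Chga had 8 opened and 6 closed, the only NE marker with more opened than closed peaks. By the study's methods, cells were stained for CD45, CD31 and TER-119, which mark leukocytes, endothelium and erythroid cells and served as lineage markers in the sort, and for CD24. Among markers of other cells, leukocyte markers had 14 opened and 11 closed peaks on 6 of 10 genes, endothelial markers 20 and 54 on 8 of 8, and fibroblast markers 12 and 13 on 5 of 8, while 66.6% of all protein-coding genes had a listed peak. A listed peak near a marker does not show that the cell type was present, and the part of such cells in the member peaks was not tested.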

How the data were processed

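ATAC-seq reads of 8 libraries (4 GFPhigh, 4 GFPneg, 16 runs) were aligned by the authors to mm10 with Bowtie2 2.3.4.1. Per the paper's methods and the submitters' processing notes, the authors called peaks with MACS2, merged them, counted reads per peak and compared the groups with DESeq2 1.28.1. They kept peaks with more than a 2-fold change that passed their limit on the adjusted p. As signal, the authors deposited a normalized count averaged across the libraries. The deposited log2 fold changes, their standard errors, Wald statistics and p-values belong to the authors' own comparison and were not used, so only list membership, position and mean count enter the results.

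Depth per library is unknown, and precision is limited to counting error (Wilson intervals at 95%). Labels assigned every run to a group. Positions are 1-based on mm10. All 80367 peaks lay within the chromosomes of the reference genome, and 32851 of 32851 RefSeq promoters checked matched it. Promoter entries were found for 8 of 10 members. Start sites came from GENCODE basic. Computations used Python 3.11.15, numpy 2.4.6, pandas 2.3.3, scipy 1.17.1 and matplotlib 3.10.9. The assignment of peaks to start sites and intervals was tested on simulated data, and the motif search was not part of that test. Members, gene lists and element strings were chosen with earlier results of these data known. The text names all members, their promoter peaks, strongest peaks and nearest peaks, and of each pathway list the 2 genes with most peaks and every gene with promoter peaks in both lists. Other peaks, neighbouring genes and cell type markers were named after their values were seen. Alternatives were other assignments to genes, distance limits, mean count minimums, merging of peaks, promoter distances and search windows.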

Additional observations from a re-analysis of the deposited data

How the results depend on the processing

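No test was run on the deposited lists, so each alternative gives a value only. The number of member peaks, 60, became 33 with start sites of any annotated gene, 27 with a mean count of at least 50 and 33 without Sik1. The opened share of 66.7% became 48.5% without Sik1, and 85.2% with a mean count of at least 50, where 64.4% of all peaks were opened. Under the remaining assignments, limits and merging it lay between 65.0% and 75%. The share over all listed peaks also moved under these limits. Within 50 kb the members had 65.0% (49.5 to 77.9), against 58.5% of all peaks. Within 100 kb they had 70.9%, against 55.7%, and with a mean count of at least 20 they had 75%, against 55.0%. The promoter share of 18.3% became 30.3% with start sites of any gene, 34.7% with assignment to gene bodies or within 10 kb and 29.6% with a mean count of at least 50. The median mean count of 42.6 became 65.7 and 168 with minimums of 20 and 50, which follows from the minimum itself. The CRE core share of 26.7% became 15% in the central 100 bp, where 6.32% of all peaks held it, and 1.67% for the full CRE. The TEAD core share of 15% became 6.06% without Sik1 and 23.3% over whole peaks, where 18.8% of all peaks held it. The opened share of the other pathway genes, 47.0%, became 49.4% within 100 kb, where 55.7% of all peaks were opened. With a mean count of at least 20 it became 49.8%, against 55.0% of all peaks. It became 56.4% without the 2 genes with the most peaks of each list, an alternative chosen after seeing the data. No paired analysis was possible because the files hold no values per sample and the authors' comparison was not refitted, and for the same reason no replicate was left out.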
